A study of Homo sapiens with 6 samples.

Results

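The 9 genes described here are 7 metallothioneins (MT1A, MT1E, MT1F, MT1G, MT1M, MT1X and MT2A), the transcription factor MTF1 and the zinc exporter SLC30A1. They were chosen by name with their measured difference between sh-TRAF2 and sh-NC in view, above all the fall of MT1F against its paralogues and against SLC30A1. Of the 9 genes, 7 had a row among the 23002 genes measured, and MT1A and MT1M are not analysed here. Of those 7, 6 passed the filter on low values (a mean of at least 0.5 FPKM over the 6 samples) and MT1G did not. Because this difference selected the genes, their values in it are given as a description, and no test of them is reported.

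Metallothioneins are very small, cysteine-rich proteins that hold zinc, copper and cadmium through their cysteine thiols and buffer free metal in the cytosol. MTF1 is a zinc finger transcription factor that senses a rise in free zinc and binds metal response elements in the promoters of metallothionein genes and of SLC30A1. SLC30A1 carries zinc out across the plasma membrane. In the brain, metallothioneins are prominent in astrocytes, and MT1 and MT2 genes respond to metals, oxidants and glucocorticoids. TRAF2, the gene depleted here, encodes an adaptor and ubiquitin ligase of tumour necrosis factor receptor signalling.

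RNA was sequenced from U251, an established human glioblastoma cell line, in 2 groups of 3 samples. One group, labelled NC and called sh-NC here, carried a control lentivirus with no target. The other, labelled KD and called sh-TRAF2 here, carried a lentivirus expressing a hairpin against TRAF2. Both were stable lines, selected with puromycin and grown in DMEM with serum according to the study's methods. Which of the study's TRAF2 hairpins was used, and whether the 3 samples of a group came from separate infections, is not given in the sources used here, so the spread within a group may reflect 1 line sampled several times. Values are FPKM, fragments counted per kilobase of transcript and scaled to the number of mapped fragments, and whole read numbers could be recovered from them. Between 33999558 and 36823562 reads per sample were recovered. TRAF2 itself averaged 16.3 ± 1.84 FPKM (SD, n = 3) in sh-NC and 3.27 ± 0.0540 FPKM in sh-TRAF2, 79.9% lower. Of 6 glial and mesenchymal markers, 5 were tested, of which 3 rose and 0 fell at a limma adjusted p under 0.05. Of all genes tested, 44.6% passed in either direction. VIM rose from 1242 to 1582 FPKM (limma adjusted p = 6.9e-05, the groups not overlapping). CD44 averaged 189 and 179 FPKM and SOX2 25.4 and 27.7 FPKM in sh-NC and sh-TRAF2. NES rose from 5.35 to 11.7 FPKM and GFAP from 0.467 to 1.18 FPKM (limma adjusted p = 1.9e-05 and 0.038, the GFAP groups overlapping), whereas S100B was at 0 in 5 of the 6 samples. Markers of blood, endothelial, epithelial and liver cells (PTPRC, PECAM1, EPCAM and ALB) did not pass 0.208 FPKM in any sample.

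The metallothioneins are close copies of each other, which bears on how far reads could be assigned to each gene. The coding sequences of the 4 metallothioneins past the filter are therefore shown, from GENCODE release 29, with capitals marking the bases that differ from MT1F.
MT1F: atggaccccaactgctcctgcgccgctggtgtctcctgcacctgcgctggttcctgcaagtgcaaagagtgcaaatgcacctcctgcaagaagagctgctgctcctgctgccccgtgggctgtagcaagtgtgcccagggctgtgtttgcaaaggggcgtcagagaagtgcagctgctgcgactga
MT1E: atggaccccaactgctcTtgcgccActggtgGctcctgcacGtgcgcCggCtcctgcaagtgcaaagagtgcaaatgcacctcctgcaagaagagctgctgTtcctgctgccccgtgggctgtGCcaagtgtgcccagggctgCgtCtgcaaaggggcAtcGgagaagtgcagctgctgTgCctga
MT1X: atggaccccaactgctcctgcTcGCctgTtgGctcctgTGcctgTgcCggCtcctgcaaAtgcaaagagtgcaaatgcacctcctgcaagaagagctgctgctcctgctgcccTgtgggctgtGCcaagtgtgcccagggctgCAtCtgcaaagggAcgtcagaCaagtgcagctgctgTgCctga
MT2A: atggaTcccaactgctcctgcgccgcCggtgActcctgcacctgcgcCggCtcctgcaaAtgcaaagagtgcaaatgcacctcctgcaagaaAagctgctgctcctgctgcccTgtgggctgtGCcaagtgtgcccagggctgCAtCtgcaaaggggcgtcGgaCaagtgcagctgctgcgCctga
Each runs for 186 bases with its stop codon and encodes 61 residues. Against MT1F, MT1E differed at 15 bases (91.9% identity), MT2A at 16 (91.4%) and MT1X at 21 (88.7%). Of all 50-base stretches of the MT1F coding sequence, 16.8% also occurred in a transcript of another gene, and sharing was lower over whole transcripts. Of all 50-base stretches of the MT1F transcript, 3.6% were shared in this way, against 5.3% for MT1E, 4.9% for MT2A and 45.1% for MT1X. These are GENCODE transcripts, with 641 such stretches in MT1F and 737 in MT2A. The FPKM and recovered reads implied shorter counted lengths, 471 bases for MT1F and 405 for MT2A, so shares over the counted sequence may be higher. Over 100 bases, no stretch of MT1F was shared, and 19.1% of those of MT1X were. MT1X also lies over AC026461.1, transcribed in the same direction, which leaves its reads the least certain of the 4, and how the authors' counting treated shared reads is not given in the sources used here. On chromosome 16 the genes lie in the order MT2A, MT1E, MT1F, MT1G, MT1X, with pseudogenes and other metallothioneins between them, and MT1F and MT1G are neighbours.

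MTF1 acts through metal response elements in promoters. Those of MT2A and MT1X are shown, the most abundant metallothioneins and the ones with the smallest relative falls among those tested. The 250 bases before the RefSeq start are given on the gene's strand (GRCh38.p14), with capitals marking each match to TGCACNC or TGCGCNC, the core of the metal response element, on either strand and with overlaps allowed.
MT2A, chr16:56608334-56608583, plus strand: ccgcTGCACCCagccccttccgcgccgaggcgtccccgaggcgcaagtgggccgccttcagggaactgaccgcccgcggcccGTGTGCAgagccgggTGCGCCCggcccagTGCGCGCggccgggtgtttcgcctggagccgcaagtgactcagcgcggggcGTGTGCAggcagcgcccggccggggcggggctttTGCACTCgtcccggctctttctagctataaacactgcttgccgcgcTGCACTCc
MT1X, chr16:56682220-56682469, plus strand: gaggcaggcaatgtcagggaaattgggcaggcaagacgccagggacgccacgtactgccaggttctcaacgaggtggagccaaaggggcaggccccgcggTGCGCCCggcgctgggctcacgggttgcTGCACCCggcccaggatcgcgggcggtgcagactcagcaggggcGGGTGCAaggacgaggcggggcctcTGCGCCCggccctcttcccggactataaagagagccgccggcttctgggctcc
The MT2A window held 7 matches, from 246 to 8 bases before the start, and the MT1X window held 4, from 150 to 53 bases before it. SLC30A1, on chromosome 1, had 1 match and MTF1, also on chromosome 1, had 0 in windows of the same length, but the SLC30A1 window does not hold the start that GENCODE release 29 gives, so its count may not describe the promoter in use. At least 1 match was found in 24.8% of all 35116 promoters of this length and at least 4 in 0.37% of them. Among promoters of tested genes these shares were 31.7% and 0.47%. Promoters of MT1E, MT1F and MT1G were not analysed here.

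MT1F carried the deepest fall of the group. It measured 4.87, 4.91 and 4.90 FPKM in the sh-NC samples and 1.35, 1.81 and 1.65 FPKM in the sh-TRAF2 samples. All 3 sh-TRAF2 samples lay below all 3 sh-NC samples, and the sh-NC values were almost equal. The mean was 67.2% lower in sh-TRAF2, a log2 fold change of -1.56 with a standard error (SE) of 0.10 on the log2(FPKM + 0.1) scale, and 11 of the 11870 genes tested had a lower value. These levels rest on few reads, 81, 82 and 85 in sh-NC and 22, 29 and 27 in sh-TRAF2. The pooled read ratio, scaled for depth, was 0.328 with an exact 95% interval of 0.251 to 0.424, which covers counting error only, as do all such intervals here. The SD of the sh-NC samples, 0.0191 FPKM, was 0.390% of their mean, less than reads of this number would vary by counting alone, so the SE of 0.10 is small for this depth. A fit that models read depth (limma-voom on the recovered reads) gave -1.60 with an SE of 0.26.

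MT1E, the metallothionein gene nearest to MT2A in this set, followed MT1F in depth. It stood at 22.0, 20.2 and 18.9 FPKM in sh-NC and at 11.6, 9.57 and 10.4 FPKM in sh-TRAF2. The groups did not overlap, and the mean fell from 20.4 ± 1.53 to 10.5 ± 0.998 FPKM (SD, n = 3), 48.5% lower (log2 fold change -0.95, SE 0.080). The MT1E read ratio was 0.516 (exact 95% interval 0.474 to 0.561). At a log2 fold change of -1, the size that a call of any gene required beside an adjusted p under 0.05, MT1F lay inside and MT1E just outside. Leaving out sh-NC replicate 3 or sh-TRAF2 replicate 1 put MT1E past it, at -1.003 and -1.023.

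MT1X, the most distant of the 4 from MT1F in its coding sequence, fell less. Its values were 34.0, 34.6 and 37.2 FPKM in sh-NC and 31.0, 21.8 and 24.8 FPKM in sh-TRAF2. The groups did not overlap, but sh-TRAF2 replicate 1 came within 3 FPKM of the lowest sh-NC sample. The mean was 26.7% lower (log2 fold change -0.46, SE 0.11), and single sh-TRAF2 to sh-NC log2 ratios ran from -0.77 to -0.13.

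MT2A, the main metallothionein transcript of these cells, had the smallest relative fall of the 4 and by far the largest absolute one. It measured 885, 970 and 931 FPKM in sh-NC and 754, 758 and 748 FPKM in sh-TRAF2. The sh-TRAF2 samples were tightly grouped below the sh-NC samples, with an SD of 5.10 FPKM against 42.5 FPKM. The mean was 18.9% lower, a log2 fold change of -0.30 (SE 0.035), and 1701 of the genes tested had a lower value. MT1G was listed at 0 in 5 samples and at 0.131 FPKM in sh-NC replicate 3, where its number of reads could not be fixed, so no change in it was detectable at this depth.

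**Figure D1:**
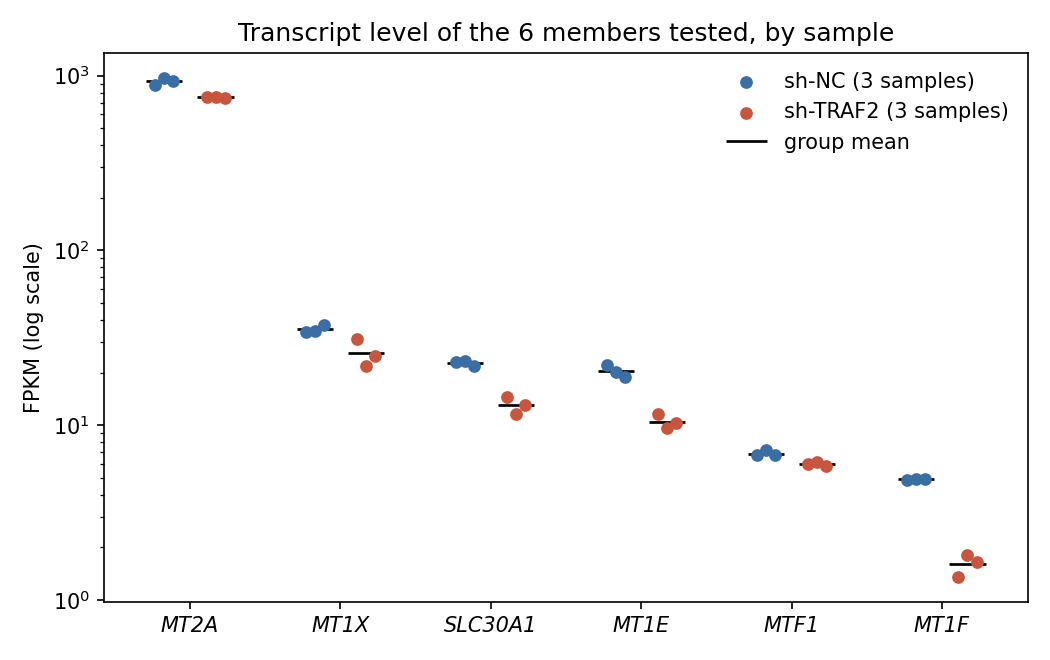
FPKM of the 6 genes past the filter on a log axis, with 1 point per sample, sh-NC in blue, sh-TRAF2 in red and a black line at each group mean. In every gene the 3 sh-TRAF2 points lie below the 3 sh-NC points, with the widest gap in MT1F (4.87 to 4.91 against 1.35 to 1.81 FPKM) and the narrowest in MTF1 (6.73 to 7.16 against 5.85 to 6.15 FPKM) and MT1X (34.0 to 37.2 against 21.8 to 31.0 FPKM).

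SLC30A1, the zinc exporter, changed by almost as much as MT1E. Its levels were 23.0, 23.3 and 21.8 FPKM in sh-NC and 14.4, 11.6 and 13.1 FPKM in sh-TRAF2, on 2351 to 4914 reads per sample. The groups lay well apart, and the mean was 42.6% lower (log2 fold change -0.80, SE 0.076), with a read ratio of 0.574 (exact 95% interval 0.559 to 0.590). MTF1, the factor shared by these genes, measured 6.73, 7.16 and 6.75 FPKM in sh-NC and 5.997, 6.15 and 5.85 FPKM in sh-TRAF2. Its groups did not overlap either, but the difference was the smallest of the group, 12.8% lower (log2 fold change -0.19, SE 0.055). RNA levels of MTF1 say nothing of the activity of its protein, which was not measured in these files.

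In all 6 genes past the filter the groups did not overlap, with sh-TRAF2 lower, as in 26.5% of all genes tested. Nothing is read from this count, since the same difference chose the genes. The median log2 fold change of the 6 genes was -0.63, beside 0.019 for all genes tested, and 47.4% of all genes tested had a value below 0.

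**Figure D2:**
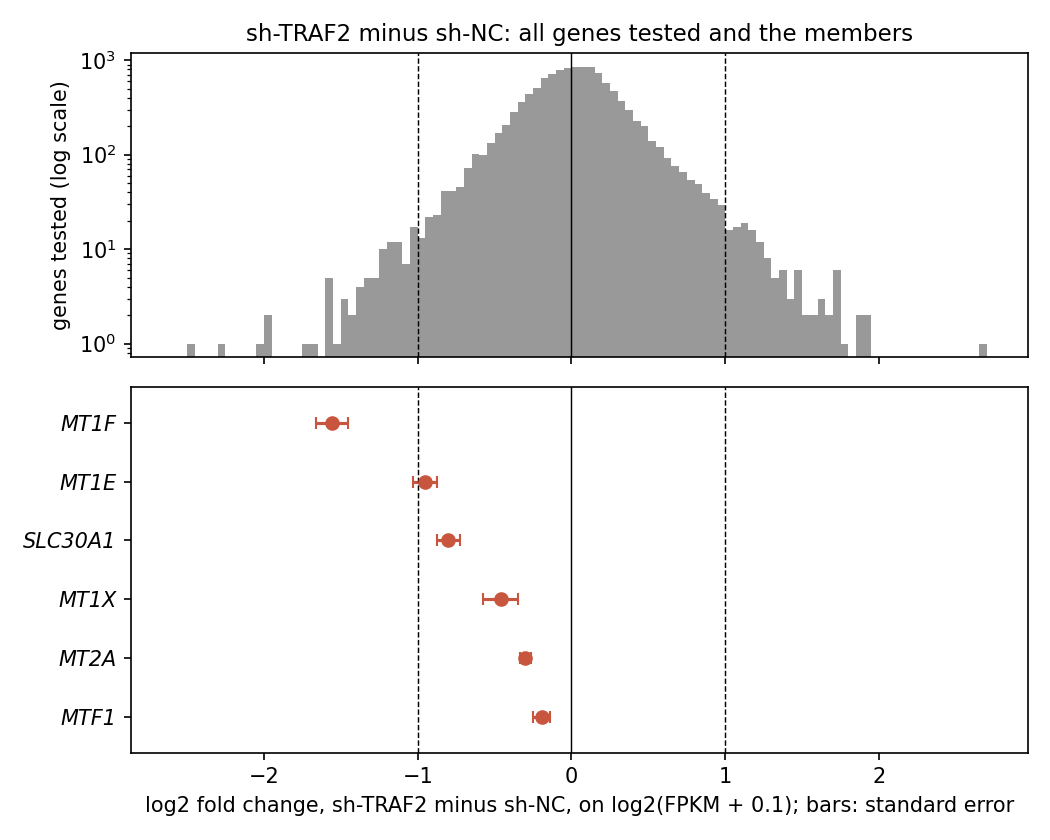
The upper panel shows how many of the 11870 genes tested had each log2 fold change (log vertical axis), and the lower panel shows the 6 genes with bars of 1 SE, with dashed lines at the calling threshold of 1 in either direction. MT1F at -1.56 lies past the dashed line, MT1E at -0.95 just short of it, and MTF1 at -0.19 nearest to 0.

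The fall of MT1F against its paralogues helped choose these genes. The ratios of each sample below are computed from the same FPKM, so they describe that fall and add no evidence for it. Per 100 FPKM of MT1E there were 22.2, 24.3 and 25.9 FPKM of MT1F in sh-NC and 11.7, 18.9 and 15.9 in sh-TRAF2. Per 100 FPKM of MT1X the values were 14.3, 14.2 and 13.2 against 4.37, 8.31 and 6.65. Per 100 FPKM of MT2A they were 0.550, 0.506 and 0.526 against 0.179, 0.239 and 0.220. In all 3 ratios every sh-TRAF2 sample was below every sh-NC sample, and the ratio to MT1E came closest to an overlap. On the log2 scale MT1F fell 0.99 further than the mean of the other 3 metallothioneins (difference -0.99, SE 0.19). Taken singly, MT1F differed from MT1E by -0.61 (SE 0.20), from SLC30A1 by -0.76 (SE 0.21) and from MT1X by -1.10 (SE 0.27). It differed from MT2A by -1.26 (SE 0.12) and from MTF1 by -1.37 (SE 0.11). SEs of these differences rest on the spread of MT1F between samples, which in sh-NC was less than counting alone would give. They are thus small for this depth, since limma-voom gave MT1F alone an SE of 0.26.

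**Figure D3:**
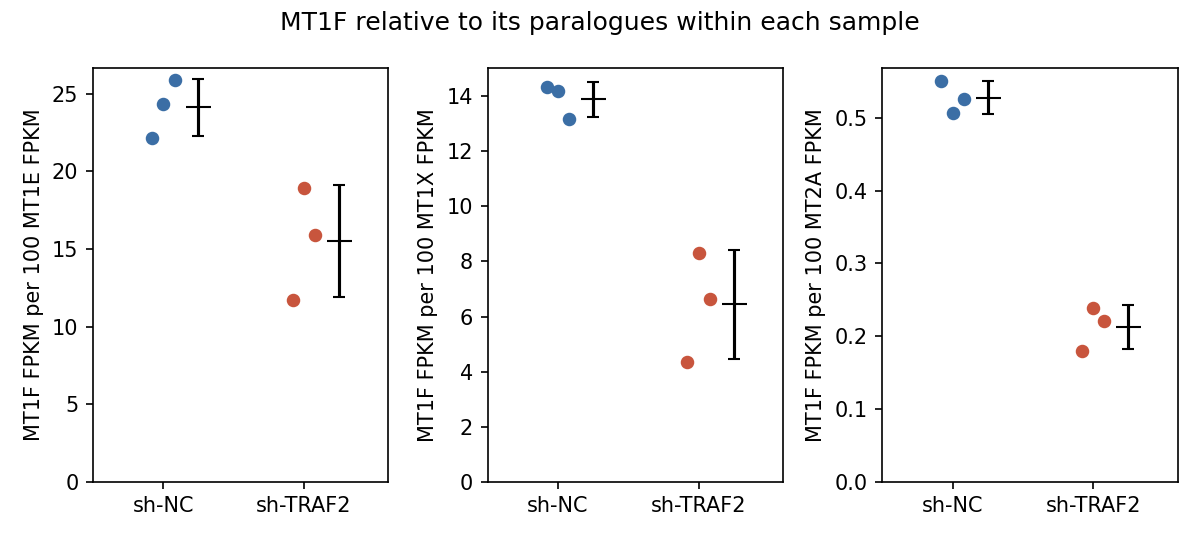
MT1F FPKM per 100 FPKM of MT1E, MT1X or MT2A in each sample (points), with the mean and SD of each group beside them in black and each axis starting at 0. All sh-TRAF2 points lie below the sh-NC points, from 13.2 to 14.3 in sh-NC down to 4.37 to 8.31 in sh-TRAF2 for MT1X.

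Summed over the measured metallothioneins, the RNA went from 989 ± 42.0 to 791 ± 6.91 FPKM (SD, n = 3), 19.99% lower, with a difference of -198 FPKM (SE 24.6). MT2A supplied 88.6% of the FPKM lost, MT1E 4.995%, MT1X 4.76% and MT1F 1.66%. The largest relative fall thus belonged to a gene that made up 0.495% of metallothionein FPKM in sh-NC and 0.203% in sh-TRAF2. The share of MT2A was 93.9% and 95.2%, that of MT1X 3.57% and 3.26%, and that of MT1E 2.06% and 1.33%. In bulk RNA, fewer cells with a transcript and less RNA per cell cannot be told apart.

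In both groups the order of levels was MT2A, MT1X, SLC30A1, MT1E, MTF1, MT1F and MT1G. Neighbours in this order did not overlap, except SLC30A1 and MT1E in sh-NC (21.8 to 23.3 against 18.9 to 22.0 FPKM). MT2A stood at the 99.9 percentile of all measured genes in sh-NC, MT1X at 92.2 and MT1F at 68.5, and MT1F moved to 56.9 in sh-TRAF2.

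Within sh-TRAF2 the listed values of the genes did not all follow 1 order of samples, though part of this lies within counting error. MT1E, MT1X and SLC30A1 were each highest in sh-TRAF2 replicate 1 and lowest in replicate 2. The exact Poisson 95% intervals of those 2 replicates lay apart for MT1X and SLC30A1 and overlapped for MT1E. MT2A and MTF1 were highest in replicate 2 and lowest in replicate 3, but their intervals overlapped in all 3 replicates, so their order is not resolved. MT1F was lowest in replicate 1 and highest in replicate 2, but its 22 and 29 reads there have exact Poisson 95% intervals of 13.8 to 33.3 and 19.4 to 41.6, which overlap. Without sh-TRAF2 replicate 1, the further fall of MT1F against the other metallothioneins was -0.81, and the fall of MT1X was -0.60.

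The 5 tested genes whose profile over the 6 samples was most like that of MT1F, by the root mean square difference of centred log2(FPKM + 0.1), were CMBL (0.092), SELENON (0.10), GOLGA7 (0.13), MEST (0.16) and SFXN1 (0.16). CMBL went from 2.33 to 0.727 FPKM and SELENON from 13.5 to 4.52 FPKM. The paralogues MT1E, MT1X and MT2A stood at ranks 108, 1164 and 1581 in this likeness, and SLC30A1 at rank 204. This likeness was measured over samples in which the 2 groups differ, so a gene with a difference of like size scores well whatever its spread within a group.

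Genes of zinc transport other than SLC30A1 did not move as one. Of 23 listed SLC30 and SLC39 transporters, 20 had a row and 15 were tested, of which 2 rose and 2 fell at an adjusted p under 0.05 (26.7%), beside 44.6% of all genes tested that passed in either direction. Their median log2 fold change was -0.03. SLC39A10, which brings zinc into the cell, fell from 2.57 ± 0.0767 to 1.56 ± 0.142 FPKM (SD, n = 3; log2 fold change -0.69, SE 0.093, limma adjusted p = 0.0006). Its samples read 2.55, 2.66 and 2.51 FPKM in sh-NC and 1.71, 1.51 and 1.44 FPKM in sh-TRAF2, with no overlap. SLC30A6, a zinc transporter of the Golgi, fell from 7.08 to 5.998 FPKM (-0.23, SE 0.057, limma adjusted p = 0.011). SLC39A9, a zinc transporter of the same family as SLC39A10, rose from 8.82 to 12.3 FPKM (0.48, SE 0.062, limma adjusted p = 0.0005). The fourth gene, SLC39A14, rose from 90.5 to 99.7 FPKM (0.14, SE 0.048, limma adjusted p = 0.045) and is named after its value was seen, to complete the count.

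Genes that share inducers with metallothioneins were read in the same way. Of 18 genes of metal and protein stress, 16 were tested, of which 8 fell and 3 rose (68.8%), with a median of -0.20. Of all genes tested, 20.9% fell and 23.7% rose at the same threshold, 44.6% in either direction. The 3 with the smallest adjusted p all fell. NQO1, a quinone reductase, fell from 239 ± 17.1 to 139 ± 8.66 FPKM (-0.78, SE 0.060, limma adjusted p = 4.1e-05). NFE2L2, the oxidant-responsive transcription factor, fell from 71.3 ± 3.23 to 44.7 ± 0.141 FPKM (-0.67, SE 0.041, limma adjusted p = 1.2e-05), and GCLM, a subunit of glutathione synthesis, from 25.1 ± 0.771 to 17.3 ± 0.356 FPKM (-0.53, SE 0.043, limma adjusted p = 4.7e-05). HMOX1, the haem oxygenase that metals also induce, went from 358 ± 62.2 to 212 ± 17.8 FPKM (-0.75, SE 0.11, limma adjusted p = 0.0010) and was singled out after its value was seen. The 3 genes that rose, named for the same reason, were the heat shock proteins HSPA8 (0.31), HSPB1 (0.29) and HSPH1 (0.21). Other protein stress genes of the list, also named after their values were seen, did not rise with them. BAG3 fell (-0.32, SE 0.036, limma adjusted p = 0.0003), and HSPA1B (0.15), DNAJB1 (0.03) and HSF1 (-0.01) did not pass.

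Of 16 copper handling genes, 13 were tested, of which 5 rose and 2 fell (53.8%, beside 44.6% of all genes tested), with a median of 0.14. STEAP3, a reductase of iron and copper, was called lower (0.733% of all genes tested were), from 6.23 ± 0.706 to 2.45 ± 0.195 FPKM (-1.31, SE 0.096, limma adjusted p = 3.3e-05). SLC31A1, the copper importer, fell from 17.1 to 13.6 FPKM (-0.33, SE 0.048, limma adjusted p = 0.0009), and COX11, a copper chaperone of cytochrome oxidase, rose from 4.07 to 5.31 FPKM (0.37, SE 0.063, limma adjusted p = 0.0018). Of 14 glucocorticoid response genes, 12 were tested, of which 2 rose and 3 fell, with a median of -0.07, and their share of 41.7% was near the 44.6% of all genes tested. SGK1, a kinase induced by glucocorticoids, rose from 8.71 to 14.0 FPKM (0.68, SE 0.070, limma adjusted p = 0.0002), PER1 from 12.9 to 15.8 FPKM (0.29) and CEBPB fell from 142 to 128 FPKM (-0.15). NR3C1, the glucocorticoid receptor itself, averaged 9.80 and 8.45 FPKM (-0.21, limma adjusted p = 0.013). The 7 copper handling genes past the test became 4 with no filter on low values, and the 5 glucocorticoid response genes became 3 without sh-NC replicate 1.

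Of 18 genes on either side of the metallothionein cluster on chromosome 16, 15 were tested, of which 6 rose and 1 fell (COQ9, from 37.1 to 31.5 FPKM), with a median of 0.09. The share past the test, 46.7%, was close to the 44.6% of all genes tested, so the count is no result about these genes. ARL2BP, which binds the small GTPase ARL2, was called higher (0.986% of all genes tested were), from 28.9 ± 0.860 to 78.9 ± 3.81 FPKM (1.44, SE 0.046, limma adjusted p = 7.9e-07), with samples at 29.8, 28.8 and 28.1 FPKM in sh-NC and 83.2, 77.3 and 76.1 FPKM in sh-TRAF2. OGFOD1 rose by 0.36 and NUP93, a nuclear pore protein, by 0.31. ARL2BP, OGFOD1, COX11, SLC39A9, SLC31A1, STEAP3, NQO1 and NFE2L2, among other listed genes, overlap other annotated genes, and whether the counting used strand is not given in the sources used here, so their reads are uncertain to that extent, while MT1E, MT1F, MT2A and SLC30A1 overlap none.

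**Figure D4:**
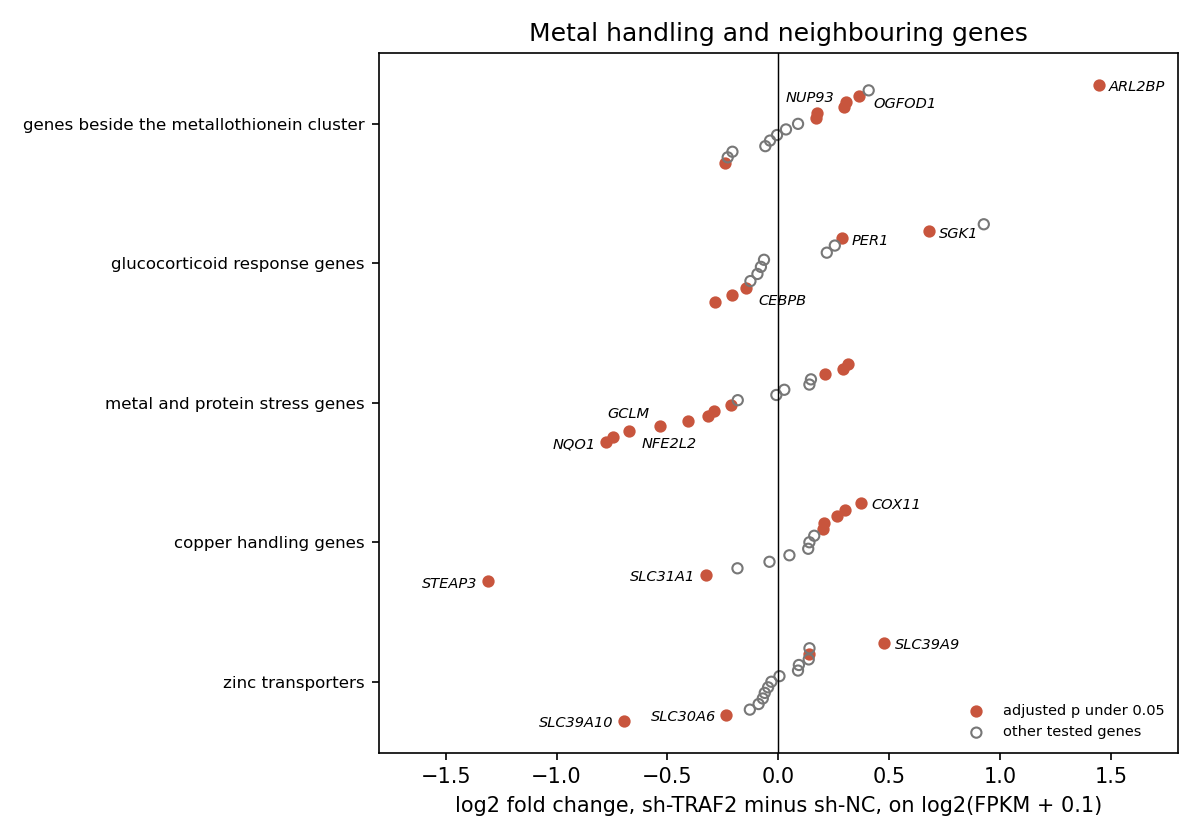
Log2 fold change of each tested gene in the 5 lists, 1 point per gene, filled red where the limma adjusted p was under 0.05 and open otherwise, with the genes named by rule labelled. Zinc transporters sit close to 0 apart from SLC39A10 at -0.69 and SLC39A9 at 0.48, while NQO1, NFE2L2 and GCLM lie between -0.78 and -0.53.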

How the data were processed

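RNA-seq libraries of 3 sh-NC and 3 sh-TRAF2 samples of U251 were used. Values are FPKM per gene as deposited by the authors, whose processing notes name HISAT2, HTSeq, DESeq2 and R 3.2.0, while genome build, annotation and strand use are not given in the sources used here. Whole reads were recovered from the FPKM steps for 100% of 23002 genes (relative tolerance 1e-11), 33999558 to 36823562 per sample. For 2643 genes with a value in 1 sample only, MT1G among them, the step cannot be fixed and 1 read was assumed, and in simulated data 97.9% of genes were recovered exactly. Genes with a mean of at least 0.5 FPKM (11870) were tested with limma 3.58.1 (R 4.3.3, trend, two-sided) on log2(FPKM + 0.1), Benjamini-Hochberg adjusted over all of them. Calls required an absolute log2 fold change above 1 and adjusted p under 0.05. The fold change understates changes of low genes. On simulated data the fit called 99% of 200 changed genes and 1 unchanged gene. Every planted change was larger than the calling threshold, and the noise was normal with each gene's observed spread. The simulation thus says nothing of changes near the threshold or of counting error in genes with few reads. The members and lists were chosen with earlier results of these data known. Named genes were TRAF2, the members, in each list the called genes and the 3 with the smallest adjusted p, and the 5 profiles nearest to MT1F. Coding sequences came from GENCODE release 29 and promoters from RefSeq. A further 10 metallothionein genes and pseudogenes, with MT1A and MT1M, are not analysed here. Alternatives varied the pseudocount, filter, scaling, variance trend, replicate block, limma-voom on reads and each sample left out.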

Additional observations from a re-analysis of the deposited data

How the results depend on the processing

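Across 15 alternative settings no direction reversed, and 127 of the summary values stayed within the replicate spread or within 1.5 times the main count while 8 did not. With a pseudocount of 1, genes called higher went from 117 to 46, genes called lower from 87 to 41, MT1F to -1.18, MT1F against the other metallothioneins to -0.63 and TRAF2 to -2.01. With limma-voom on the recovered reads, 239 genes were called higher and 174 lower. With no filter on low values, 4 copper handling genes passed in place of 7. Leaving out 1 sample at a time gave 95 to 163 genes called higher, 79 to 95 called lower, MT1F from -1.65 to -1.45, MT1F against the other metallothioneins from -1.13 to -0.81, 3 to 5 zinc transporters, 10 to 13 stress genes, 5 to 7 copper handling genes and 5 to 8 cluster neighbours. The glucocorticoid count ran from 3 to 7 and was 3 without sh-NC replicate 1, against 5 with all samples. Same-numbered samples did not deviate together (r of -0.081, 0.072 and 0.073), so no pairing by number was detected, though so few samples cannot exclude it. With a replicate block MT1F stayed at -1.56, with 120 genes called higher and 88 lower. The cause of these shifts was not tested. Scalings moved the median of all genes by less than 0.1 on the log2 scale (medians from -0.00036 to 0.019). Depth limits MT1F, with 22 to 85 reads per sample, and MT1G, listed at 0 in 5 of 6 samples.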

Other observations

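Genes that share annotation terms with the members, in terms chosen after the table was seen, were counted in the same way, beside 44.6% of all genes tested that passed in either direction. These counts repeat some genes reported above, SLC39A9, SLC39A10 and SLC39A14 in zinc ion homeostasis, HMOX1 in the cadmium term and NFE2L2 in the copper term. Of 13 other tested genes in intracellular zinc ion homeostasis, 2 were higher and 2 lower at a limma adjusted p under 0.05. Of 5 in the cellular response to zinc ion, 1 was higher and 2 were lower, of 15 in the response to cadmium ion, 4 were higher and 5 lower, and of 8 in the response to copper ion, 2 were higher and 3 lower.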
